A study of Mus musculus with 6 samples.

Results

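The genes described here are 3 receptors of the EGF receptor family (Egfr, Erbb2 and Erbb3), 5 of their ligands (Egf, Tgfa, Hbegf, Btc and Areg) and the receptor inhibitors Errfi1 and Lrig1, measured in mouse liver. They were chosen by name. A gene was represented by the probe sets that the array annotation pairs with its symbol alone, and by the brightest of these where there were several. Of the 10 genes, 9 had such a probe set, out of 18193 genes on the array, and no probe set was paired with Areg in the annotation used. The 9 genes had 23 probe sets, out of 45101 on the array.

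Liver RNA came from 6 male C57BL/6 mice aged 6 weeks, each on 1 Affymetrix array. In 3 mice p14 had been deleted conditionally in the liver (p14 KO, called KO 1 to KO 3 here), and 3 were controls with the genotype p14 WT (WT 1 to WT 3). p14 is the product of Lamtor2, a scaffold protein of late endosomes that belongs to the Ragulator complex and tethers an ERK-activating module there. The sources used here do not give the Cre line, the promoter that drives it or any floxed alleles in the controls. The animals were numbered as biological replicates.

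EGF family ligands are made as membrane-bound precursors and are released by proteases such as ADAM17. They bind receptors of the ErbB family, which pair up, phosphorylate each other and start ERK and PI3-kinase signalling before they are carried through endosomes towards the lysosome. In the adult liver EGFR is a main growth factor receptor of hepatocytes and takes part in regeneration, and its transcript is known to be more abundant in male than in female mouse liver. ERBB2 has no known ligand of its own, while ERBB3 binds neuregulins and has little kinase activity.

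The arrays themselves were checked first. Lamtor2, the deleted gene, measured 10.08, 10.19 and 10.11 on KO 1 to KO 3 and 11.32, 11.29 and 11.35 on WT 1 to WT 3, without overlap. It fell by 1.19 (limma adjusted p = 0.0104), and the difference stayed between -1.23 and -1.17 with 1 array left out, although the limma adjusted p was then 0.0691 without KO 2, 0.114 without WT 1 or WT 2 and 0.0505 without WT 3. With all its probe sets averaged the difference was -0.72 (limma adjusted p = 0.0282). Where its probes lie relative to the deleted part is not known here. Hepatocyte markers, albumin among them, lay between 12.95 and 16.28 on every array. WT 2 alone held skeletal muscle transcripts, with a log2 summed level of 15.6 for 10 muscle genes against 5.85 to 6.05 on the other arrays. Control probe sets for 18S rRNA had a KO mean 0.803 above that of WT, and the pyruvate carboxylase measure of RNA integrity (3 prime minus 5 prime, log2) was 3.51 to 3.58 in KO and 3.99 to 4.85 in WT. Their part in the member values was not tested.

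The comparison of KO with WT asked whether transcripts of this receptor system differ in livers that lack p14. Egfr was the member with the largest difference. Its mean was 3.49-fold higher in KO, but the 6 mice ranged so widely that the groups overlapped, and the difference did not pass the test. Erbb3 was 1.27-fold higher on average, also without passing. Tgfa, Errfi1 and Lrig1 had small mean differences of -0.09, 0.01 and -0.11 log2 units. Egf, Btc and Erbb2 lay near the lowest values of the array in every mouse, and Hbegf lay under the filter level of 4 on 5 of the 6 arrays.

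Differences are given as KO minus WT on the log2 scale, so that 1 unit is a doubling, and were tested with limma over the 10009 genes whose log2 value reached 4 on 3 or more of the 6 arrays. Of the 9 members with a probe set, 5 met this level. Genes with a limma p under 0.05 after Benjamini-Hochberg adjustment are termed called; there were 17, or 0.17% of those tested (0.02% higher and 0.15% lower in KO). Among the 5 tested members 0 were called by limma, and 0 had an unadjusted p under 0.05, a level that 14.5% of all genes reached. None of the 5 had all KO arrays on one side of all WT arrays, against 20.5% of all genes (6.54% higher and 14% lower in KO). Counted by probe set, limma called 0 of the 10 that members had past the filter, against 0.0866% of the 17316 tested. With so few members neither count sets them apart from the background.

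The promoter of Egfr is printed because Egfr was the member whose transcript varied most between mice, although the arrays do not measure the promoter itself. The 250 bases before the annotated start, on the plus strand at chr11:16751953-16752202 of GRCm38.p6 (RefSeq), read as follows, with capitals marking a GC box, the letters GGGCGG or their reverse complement CCGCCC, to which Sp1-type factors bind:
Egfr: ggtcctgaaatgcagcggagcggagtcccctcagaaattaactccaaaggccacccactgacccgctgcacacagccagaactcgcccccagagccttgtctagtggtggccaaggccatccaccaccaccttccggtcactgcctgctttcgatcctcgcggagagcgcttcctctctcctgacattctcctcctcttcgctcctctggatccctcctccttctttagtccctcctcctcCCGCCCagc

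This window held 1 GC box, whose first base lies 9 bases before the start, and 60.8% of its bases were G or C. A GC box on either strand was present in 32.7% of the 32851 windows of this length in the RefSeq table. The letters TATAAA, which place the start of transcription at many promoters, were searched on both strands as well. So was TTCNNNGAA, the form that STAT proteins bind. Neither was in the Egfr window, and 12.4% and 7.02% of all windows held them. Windows of 8 of the 10 members were searched. Tgfa and Lrig1, each with 1 window, had 2 GC boxes apiece and a G and C content of 69.2% and 71.6%. Errfi1 has 2 annotated starts with a window each, one with 3 GC boxes and the other with 0. Areg had 1 GC box, while Erbb2, Btc and both windows of Egf had 0. TATAAA was present in the Areg window and in the Errfi1 window with 3 GC boxes. Such matches describe letters in a window and do not show that a factor binds.

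The brightest Egfr probe set (1435888_at) measured 12.83, 11.21 and 10.05 on KO 1, KO 2 and KO 3 and 7.92, 10.05 and 10.70 on WT 1, WT 2 and WT 3 (log2). KO 1 was the highest array and WT 1 the lowest, and KO 3 matched WT 2 to 2 decimals and lay below WT 3. The KO mean was 11.36 ± 1.40 (SD, n = 3) and the WT mean 9.56 ± 1.46 (SD, n = 3). The difference was 1.80, with a standard error of 0.98 and a 95% interval from -0.61 to 4.22 (limma adjusted p = 0.425). On the linear scale that interval runs from 0.653-fold to 18.7-fold, so neither a lower level nor a large excess in KO can be told from these arrays. The exact two-sided permutation p was 0.3, where 0.1 is the smallest that 3 against 3 arrays allow.

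**Figure D1:**
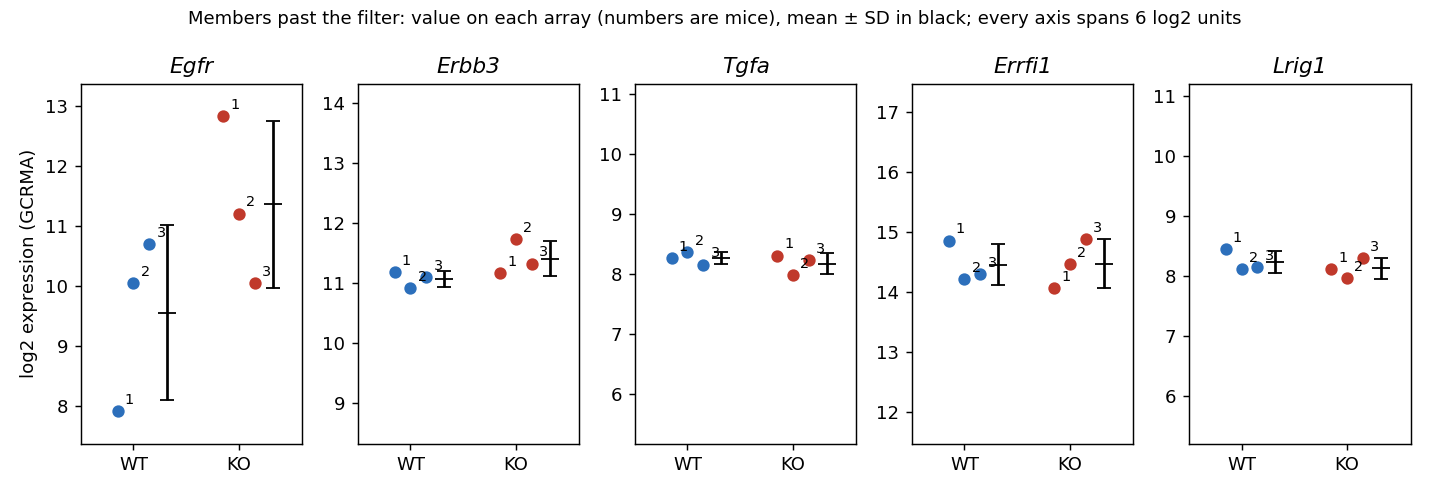
Log2 expression (GCRMA) of the 5 members past the filter, with 1 point per mouse (numbers give the mouse), WT in blue and KO in red, and the mean ± SD of each group (n = 3) in black. Every vertical axis spans the same number of log2 units. Egfr spreads from 7.92 to 12.83 with overlapping groups. The other 4 genes span 0.39 to 0.81 log2 units, against 0.44 for the median gene tested.

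The other Egfr probe sets gave the same picture. A total of 4 Egfr probe sets passed the filter, and all 4 were lowest on WT 1 and highest on KO 1. Probe set 1460420_a_at measured 11.31, 10.11 and 8.97 on the KO arrays and 7.28, 8.91 and 9.09 on the WT arrays, a difference of 1.70. Probe set 1424932_at measured 11.37, 10.03 and 8.69 in KO and 6.95, 9.07 and 9.46 in WT, a difference of 1.53. In both, KO 3 lay inside the range of the WT arrays. The dimmest of the 4, 1451530_at, measured 9.11, 7.54 and 6.25 in KO and 2.89, 6.08 and 6.33 in WT, where WT 1 fell under the level of 4 that the filter uses. Its difference of 2.53 therefore includes 1 value near background. Across the 4 probe sets the limma adjusted p, here adjusted over all probe sets tested, lay between 0.36 and 0.464. The remaining 3 Egfr probe sets stayed between 2.18 and 3.39 on all arrays.

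**Figure D2:**
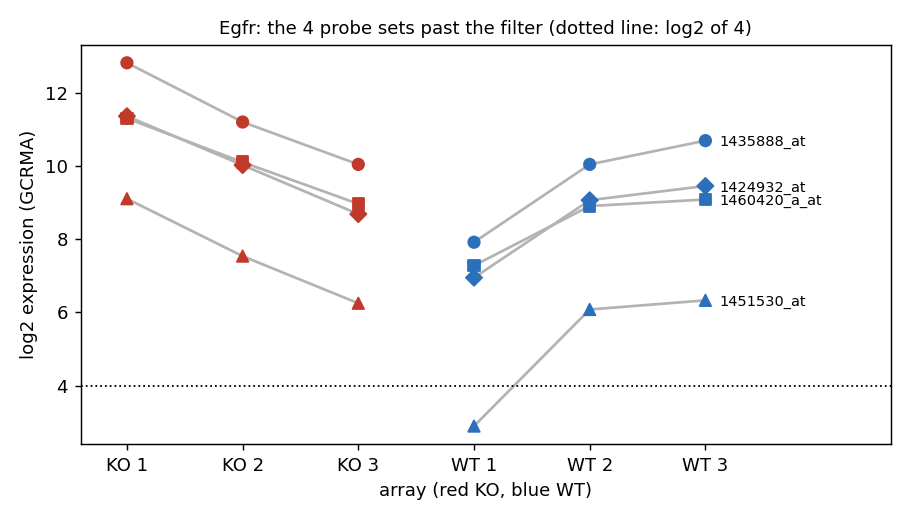
Log2 expression of the 4 Egfr probe sets past the filter on each array, KO in red and WT in blue. Grey lines join the values of 1 probe set within a group and carry no order among mice. All 4 are highest on KO 1 and lowest on WT 1, and the dotted line marks a log2 value of 4.

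The range within each group was wider than the difference between the group means. Among the WT mice alone the highest Egfr value was 2.79 log2 units, or 6.90-fold, above the lowest, and among the KO mice the range was also 2.79. The median gene had a range of 0.23 in WT and 0.26 in KO. Only 0.3% of the genes tested had a wider WT range than Egfr and 0.29% a wider KO range. Errfi1 ranged over 0.64 in WT and 0.81 in KO, where 8.47% and 8.31% of genes were wider. Erbb3 had a WT range of 0.27, close to the median gene, and a KO range of 0.57, where 17.6% of genes were wider. Tgfa ranged over 0.21 in WT and 0.33 in KO, and Lrig1 over 0.34 in both.

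**Figure D3:**
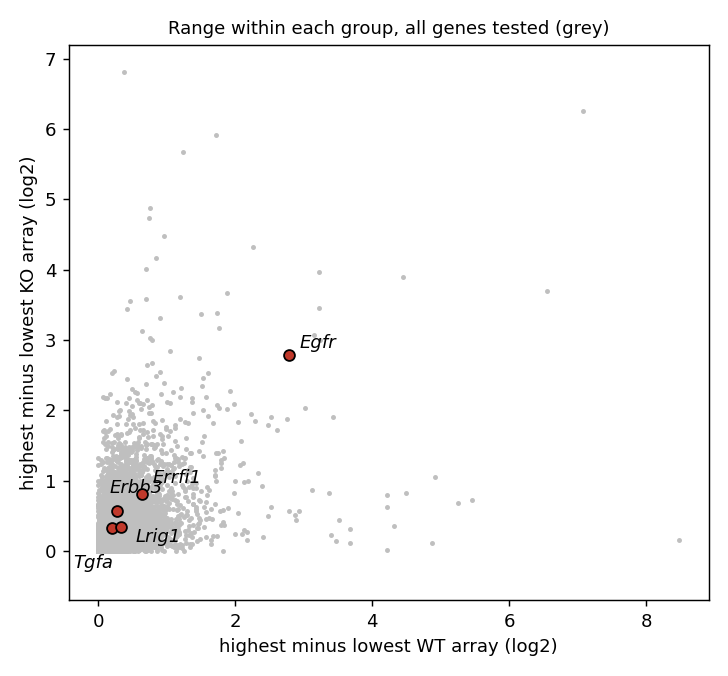
Each grey point is 1 of the 10009 genes tested, placed by the highest minus the lowest WT array (horizontal) and the highest minus the lowest KO array (vertical), both in log2 units. The 5 members are red. Egfr lies at 2.79 on both axes, far from the other 4 members.

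The size of the Egfr difference depended on single mice and on the choice of probe set. It was 0.98 without WT 1, 1.07 without KO 1, 2.38 without WT 3 and 2.46 without KO 3. It was 2.71 with KO 3 and WT 2 both left out and 1.10 with all Egfr probe sets averaged, the dim ones included. Without WT 2, the array with muscle transcripts, it was 2.05, and that of Erbb3, Tgfa, Errfi1 and Lrig1 was 0.27, -0.04, -0.11 and -0.18. The KO mean of Egfr was the higher one each time, and its limma adjusted p over all alternatives ran from 0.295 to 0.782.

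Erbb3 was the other receptor measured above background. Its brighter probe set measured 11.17, 11.74 and 11.33 on KO 1 to KO 3 and 11.19, 10.92 and 11.10 on WT 1 to WT 3. KO 2 was the highest array, and KO 1 lay between the WT arrays, so the groups overlapped. The difference was 0.34 ± 0.16 (SE), with a 95% interval from -0.07 to 0.75 (limma adjusted p = 0.394), or 0.954-fold to 1.68-fold. It was 0.18 without KO 2, and the limma adjusted p ranged from 0.315 to 0.75 over the alternatives. The second Erbb3 probe set stayed between 2.30 and 3.55. Erbb2 measured 2.89 to 3.12 over the 6 arrays on its single probe set, which allows no comparison of the groups.

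Among the ligands, Tgfa, which encodes transforming growth factor alpha, was the only member above background. It measured 8.31, 7.98 and 8.24 in KO and 8.27, 8.37 and 8.16 in WT. The lowest array was KO 2 and the groups overlapped. The difference was -0.09, with a 95% interval from -0.36 to 0.19 (limma adjusted p = 0.719), so that KO livers held between 0.778 and 1.14 times the WT level. That interval leaves room for modest differences either way. The other 2 Tgfa probe sets lay between 2.19 and 2.69.

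The other ligands were dim. Egf, the ligand that names the family and is made mainly in kidney and salivary gland, lay between 2.18 and 2.20 on its single probe set. Btc, which encodes betacellulin, lay between 2.22 and 2.90 on its brighter probe set, with WT 2 the highest array, and at 2.26 to 2.27 on the other. Hbegf, the heparin-binding EGF-like growth factor, measured 3.98, 3.98 and 4.16 in KO and 3.98, 3.98 and 3.73 in WT. Only KO 3 reached 4, and values this close to background have little order. Its second probe set lay between 2.30 and 3.33. Ligand protein that reaches the liver through the blood is not measured by these arrays.

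Errfi1 encodes MIG6, a feedback inhibitor that binds the EGF receptor kinase and is itself induced by growth factors, hormones and stress. Its brighter probe set measured 14.07, 14.47 and 14.88 in KO and 14.86, 14.22 and 14.30 in WT. KO 3 and WT 1 were the highest arrays, nearly equal, and KO 1 was the lowest. The difference was 0.01 with a 95% interval from -0.64 to 0.67 (limma adjusted p = 0.987), or 0.643-fold to 1.59-fold. The sign depended on the arrays, with 0.22 without WT 1 and -0.19 without KO 3. The second probe set had the same highest arrays, KO 3 at 14.13 and WT 1 at 13.79, and a difference of 0.21.

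On these arrays Errfi1 and Egfr were placed differently. KO 1 had the highest Egfr value and the lowest Errfi1 value on the brighter probe set, and WT 1 had the lowest Egfr value and the second highest Errfi1 value. The other 4 mice did not follow this order throughout, since WT 2 and WT 3 were low for Errfi1 and intermediate for Egfr. On the second Errfi1 probe set WT 3 was the lowest array, at 13.14, and KO 1 measured 13.20.

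Lrig1, a membrane protein that promotes degradation of ErbB receptors, measured 8.12, 7.96 and 8.30 in KO and 8.45, 8.11 and 8.15 in WT. WT 1 was highest and KO 2 lowest, with overlapping groups. The difference was -0.11, with a 95% interval from -0.44 to 0.21 (limma adjusted p = 0.695), and it came to -0.01 without WT 1. A second probe set past the filter measured 7.77, 7.84 and 7.96 in KO and 8.34, 7.93 and 8.14 in WT, a difference of -0.28 in which KO 3 lay just above WT 2 (limma adjusted p = 0.358 over probe sets). The third stayed at 2.18.

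Other genes were ranked by how closely their profile over the 6 mice followed that of Egfr. Likeness was measured as the root mean square difference over the 6 arrays after each gene's own mean was subtracted, which is 0 for identical profiles. Against a spread of 1.47 for Egfr itself, the nearest genes were Mup3, a major urinary protein, at 0.59, C8b, a complement component, at 0.63 and Keg1 at 0.69. Mup3 measured 15.46, 15.14 and 13.43 in KO and 11.26, 12.24 and 14.29 in WT. Its probes can share targets with other Mup genes. C8b measured 12.89, 12.41 and 11.64 in KO and 9.95, 10.78 and 11.75 in WT. Like Egfr, both were highest on KO 1 and lowest on WT 1, and WT 3 lay above KO 3. The limma adjusted p was 0.362 for Mup3, 0.317 for C8b and 0.388 for Keg1.

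A list of 13 genes known to be higher in male liver, C8b among them, was set beside Egfr. It was drawn up with earlier results of these data known. It had 10 genes with a probe set and 7 tested, of which 7 were higher in KO and 0 were called by limma (5 at an unadjusted p under 0.05), with a median difference of 1.06 against -0.04 for all genes. The mean of the 7 was 11.88, 10.84 and 10.19 on KO 1 to KO 3 and 7.78, 8.15 and 9.29 on WT 1 to WT 3. These means were ordered as Egfr was within each group, but without overlap between the groups. Slco1a1 and Cyp4a12a, with differences of 8.06 and 5.49, weigh most on these means. The gap between the groups therefore rests largely on both genes. Cyp4a12a measured 11.29, 7.63 and 4.47 in KO and 2.18, 2.18 and 2.56 in WT, near the lowest value of the array. It passed the filter through its KO arrays alone, so its higher KO mean was set by the filter. It is still counted in the 7, the 5, the median and the means above. On KO 3, Cyp2d9 and C8b lay below WT 3, while Cyp7b1, Cyp2u1 and Nudt7 lay above it. Among the 7 genes, 6 were lowest or tied for lowest on WT 1 and highest on KO 1, as Egfr was. Of all genes tested 4.73% had this pattern. Cyp4a12a, among the 6, read 2.18 on both WT 1 and WT 2. Because the list was drawn up with results of these data known, the comparison with all genes is not a test of it. Closeness to Egfr varied within the list. C8b was the second nearest of all genes to Egfr, whereas Slco1a1, an organic anion transporter, ranked 10006 by distance. Slco1a1 measured 12.32, 11.65 and 12.33 in KO and 2.29, 2.29 and 7.53 in WT. The distance is not scaled for size, so a gene that varies far more than Egfr lies far from it even in a like order. Cyp4a12a, highest on KO 1 as Egfr was, ranked 9953. Of 7 female-biased genes tested, 6 had a lower KO mean, at a median of -0.73, and limma called 0 (0 at an unadjusted p under 0.05). Cux2, counted in the 6, read 6.27 on every array but WT 1, where it read 6.38. With 1 array left out the median ran from -1.17 without KO 2 to -0.21 without KO 1. The 7 had means of 9.26, 10.46 and 10.65 in KO and 11.16, 10.89 and 10.54 in WT, lowest on KO 1 and highest on WT 1. All animals were male per the labels. The part of this pattern in the Egfr values was not tested.

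**Figure D4:**
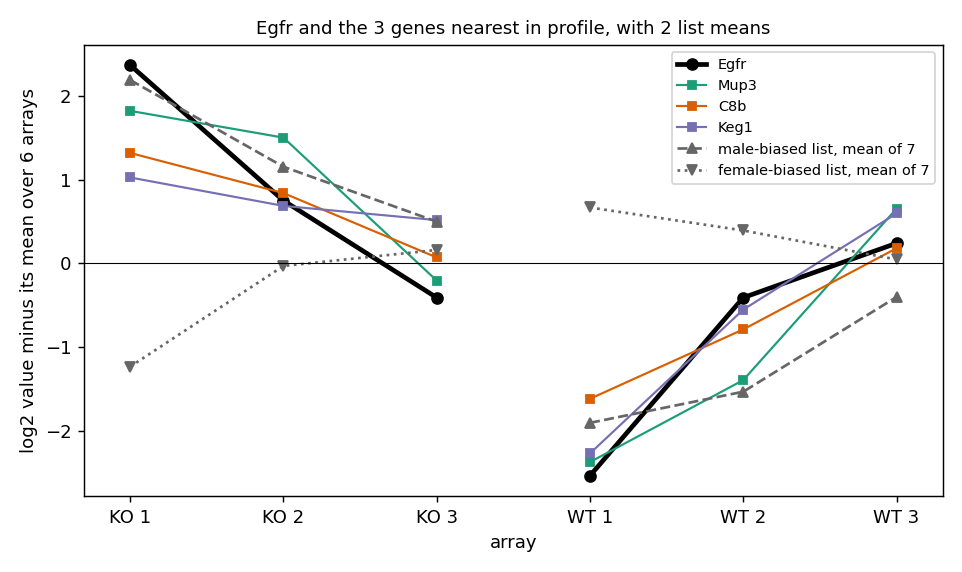
Log2 value on each array minus the gene's own mean over the 6 arrays, for Egfr (black), the 3 genes nearest in profile (coloured) and the means of 7 male-biased and 7 female-biased genes (grey, dashed and dotted). Lines join the arrays within a group and carry no order. Egfr and the male-biased mean are highest on KO 1 and lowest on WT 1, and the female-biased mean is the reverse.

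For Erbb3 the nearest profiles were those of Lncpint at 0.06, Naglu at 0.06 and Thada at 0.07, against a spread of 0.25 for Erbb3 itself. For Lrig1 they were B3gnt2, Ntn4 and Clcn3, each at 0.05, against 0.16. No test was made of these distances.

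Among the other genes of the pathway, 78 of 96 listed were tested. Of these, 55, or 70.5%, were lower in KO, against 58.4% among all genes, with a median of -0.09 against -0.04. The other 23 were not lower, and Dusp5 among them read 4.26 on every array. limma called 0 of the 78, 8 had an unadjusted p under 0.05, and 17, or 21.8%, had groups that did not overlap, against 20.5% of all genes. Of those 17, 16 were lower and 1 was higher in KO, where 14% and 6.54% of all genes had groups apart in these directions. The share without overlap was thus near the background and its split between directions leaned further to lower values, a lean that was not tested. The remaining receptor, Erbb4, and 5 of the 6 other ligands, Ereg, Epgn, Nrg1, Nrg2 and Nrg3, did not pass the filter. Nrg4, a ligand of ERBB4, did, at 8.09, 8.30 and 7.70 in KO and 8.09, 7.50 and 7.84 in WT, a difference of 0.22 (limma adjusted p = 0.626) that was 0.07 without WT 2.

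Of 8 genes linked to the release of ligands from the membrane, 6 were tested. All 6 had a KO mean below the WT mean, at a median difference of -0.12, or -0.05 with each array centred on its median. Of these limma called 0 (1 at an unadjusted p under 0.05). The 6 include Timp3, an inhibitor of ADAM17, at -0.05, so their shared direction is not a measure of ligand release. Adam17, the main sheddase of EGF family ligands, measured 8.27, 8.30 and 8.46 in KO and 8.59, 8.70 and 8.57 in WT. The groups did not overlap for this probe set, and the difference was -0.27 (limma adjusted p = 0.27). Of its other 2 probe sets past the filter, one differed by -0.16 and the other by 0.11. Mmp14, a membrane-bound matrix metalloprotease, differed by -0.34 (limma adjusted p = 0.345), and by -0.19 without KO 1, its lowest array. All 12 macrophage markers had a lower KO mean, at a median of -0.89, and limma called 0 of them (9 at an unadjusted p under 0.05). Of 10 endothelial markers 9 had a lower KO mean, at a median of -0.41, and limma called 1, Lyve1. Of 9 stellate cell markers tested 8 had a lower KO mean, at a median of -0.39, and limma called 0 (2 at an unadjusted p under 0.05). Their list means were 9.38 to 9.77 in KO and 9.78 to 10.26 in WT. The highest was that of WT 2, the array with muscle transcripts, and KO 3 at 9.77 nearly met WT 1 at 9.78. The log2 summed level of the macrophage markers was 13.35 to 14.30 in KO and 14.53 to 14.66 in WT, and none was at the lowest value of the array, the dimmest reading being 4.41. Their part in the differences of Adam17 and Mmp14, and of the genes in the lists that follow, was not tested. In whole tissue, fewer cells of a type and less RNA per cell cannot be told apart.

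Among 20 genes for adaptors, kinases and other proteins that pass the receptor signal on, 18 were tested and 16 were lower. Their median was -0.10, with 0 called by limma (2 at an unadjusted p under 0.05). Crkl, an adaptor of the CRK family, measured 9.68, 9.84 and 9.62 in KO and 10.27, 9.97 and 10.13 in WT, a difference of -0.41 (limma adjusted p = 0.242). Its other 2 probe sets past the filter went the other way, at 0.16 each. Stat5b, the transcription factor that growth hormone activates in hepatocytes and that can also act below EGFR, differed by -0.26 (limma adjusted p = 0.287), while its other probe set differed by 0.08. The median of this list was -0.03 when each array was centred on its median.

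Genes of receptor uptake and endosomal sorting, the step closest to the known place of p14, had 25 of 25 members tested, 15 lower and 10 higher. Their median was -0.03, or 0.04 with centred arrays, and limma called 0 (1 at an unadjusted p under 0.05). Epn2, an endocytic adaptor of the epsin family, measured 6.40, 6.31 and 6.74 in KO and 5.85, 6.30 and 5.99 in WT, with a difference of 0.44 (limma adjusted p = 0.327). Its other 2 probe sets past the filter gave -0.37 and -0.35, so its direction is not settled. Tollip, which binds ubiquitin on endosomes, differed by -0.17 (limma adjusted p = 0.384) on the brighter probe set and by 0.14 on the other.

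Among the other inhibitors of the receptor, 11 of 12 were tested, 7 lower and 4 higher, with a median of -0.06, or 0.0087 with centred arrays, and 0 called by limma (1 at an unadjusted p under 0.05). Socs5, a suppressor of cytokine signalling that promotes EGFR degradation, measured 5.65, 6.26 and 6.53 in KO and 6.75 to 7.01 in WT, a difference of -0.77 (limma adjusted p = 0.283). KO 1 was its lowest array, and the difference was -0.52 without it. Ptprj, a receptor phosphatase, differed by -0.33 (limma adjusted p = 0.345), while its other 2 probe sets past the filter gave 0.32 and 0.21. Over the 11 pathway genes named here, which have the smallest p of their lists, 6 of 15 further probe sets had the sign of the brighter one, so most of these small differences rest on 1 probe set.

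Genes that respond to EGFR and ERK signalling had 17 of 24 members tested, 11 lower and 6 not lower. Dusp5, counted in the 6, read 4.26 on every array. The median was -0.12, or -0.05 with centred arrays and -0.39 with the filter set at 6. Of these genes limma called 0 (3 at an unadjusted p under 0.05). Dusp6, the ERK phosphatase that reports ERK activity in many tissues, measured 9.73, 9.69 and 9.86 in KO and 11.33, 11.15 and 10.63 in WT. Every KO array was below every WT array on its single probe set past the filter. The difference was -1.27 ± 0.19 (SE), with a limma adjusted p of 0.12, which ranged from 0.0615 to 0.374 over the alternatives. Ccnd1, which encodes cyclin D1, measured 10.82, 11.61 and 11.58 in KO and 12.40, 12.11 and 12.04 in WT, a difference of -0.85 (limma adjusted p = 0.265). Its other probe sets past the filter gave -0.95 and -0.89, all 3 with non-overlapping groups, and the brightest gave -0.59 without KO 1.

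**Figure D5:**
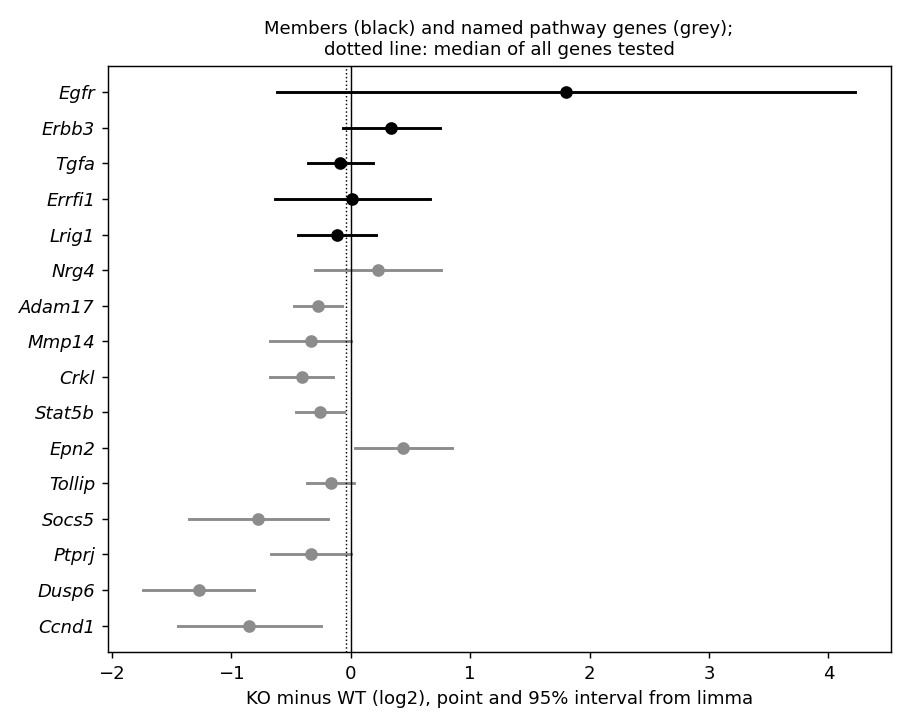
KO minus WT on the log2 scale with the 95% interval from limma, for the 5 members (black) and the 11 named pathway genes (grey). The dotted line is the median of all genes tested, -0.04. The Egfr interval, from -0.61 to 4.22, is the widest of those shown, and none of these genes passed the adjusted threshold.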

How the data were processed

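The authors deposited log2 expression values per probe set, made with GCRMA 2.16.0 under R 2.9.1 per the submitters' processing notes; the log2 scale was read from the values, and other settings are not given in the sources used here. GCRMA subtracts a background predicted from probe sequence, and 28.9% of values lay at the lowest value of 2.18, so dim probe sets carry little information. Probe sets were named through the platform annotation, which paired 34945 with 1 symbol; Entrez identifiers of 34741 were found in the RefSeq table of GRCm38.p6, and 0 symbols differed.

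Each gene took its brightest probe set, and 10009 genes passed the filter. Differences between KO and WT were fitted with limma 3.58.1 in R 4.3.3 (lmFit, eBayes, no covariates, two-sided, Benjamini-Hochberg over all genes), tested on simulated data. Single values were compared by exact permutation. Precision is limited by the number of arrays.

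The members, gene lists and tests were chosen with earlier results of these data known. All members were named, with the 2 smallest p of each pathway list and, for 3 members, the 3 nearest profiles, skipping predicted genes. Alternatives covered the filter, scaling, probe set choice, variance model, array weights, a replicate block and left-out arrays. Figures were drawn with matplotlib 3.10.9.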

Additional observations from a re-analysis of the deposited data

How the results depend on the processing

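Over 18 alternatives limma called 0 members and 0 pathway genes, and Egfr, Erbb3 and Lrig1 kept their direction in each. Errfi1, at 0.01 with all arrays, was -0.0649 with array weights, -0.31 with KO 3 and WT 2 both left out, and -0.19 to 0.22 with 1 array left out. Tgfa was -0.15 to 0.0108 with 1 array left out. With all probe sets of a gene averaged, Epn2 was -0.0243 and Ptprj 0.0232. The number of genes called among all tested, 17 with all arrays, was 3 with no filter, 10 with a filter at 6, 3 with ordinary variance, 3 with KO 3 and WT 2 both left out, and 1 to 140 with 1 array left out (6, 1 and 140 without KO 1, KO 2 and KO 3, and 1, 1 and 5 without WT 1, WT 2 and WT 3); the cause was not tested. With the replicate number as a block it was 0 in limma, with 1235 genes at an unadjusted p under 0.05, and the adjusted p of Lamtor2 was 0.116. Same-numbered mice had correlations of -0.09, -0.08 and -0.14 over genes in their deviations from the group mean, and different-numbered mice -0.07 to 0.16. Deviations from a mean of 3 arrays are constrained, so these correlations cannot exclude a pairing. The sample titles state none. Erbb3 had an unadjusted p under 0.05 in limma with median centring, with the mean of its probe sets and without KO 1, and its adjusted p was at least 0.315 throughout. Signal near background limits Erbb2, Egf, Btc and Hbegf.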
